A study of Homo sapiens with 5 samples.

Results

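The genes described here are 33 protein-coding genes of the prostate cancer cell line LNCaP whose reads were divided differently among RefSeq transcripts in cells transfected with an siRNA against LSD1 and in cells transfected with a control siRNA, while the total for the gene stayed within 1.5-fold. They were chosen from these same values. A gene was eligible when it had at least 2 protein-coding RefSeq accessions (NM), none marked as failed by the authors' program, and a summed level of at least 10 FPKM (fragments scaled to transcript length and library size) in each library. The share of an accession is its FPKM divided by the sum over the gene's NM accessions in the same library. A gene was taken when 1 of its shares differed by at least 30 percentage points between the libraries. Of 18651 protein-coding genes with an NM accession, 7016 had at least 2, 2995 were eligible and 33 were taken, which is 1.1% of the eligible genes.

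LNCaP is an androgen-sensitive human prostate cancer line, and LSD1, encoded by KDM1A, is a histone demethylase studied in this series for its part in androgen signalling. The RNA-seq part held 1 LNCaP library with LSD1 siRNA and 1 with control siRNA. The chromatin part held 3 immunoprecipitation (ChIP-seq) peak lists from cells without transfection, namely LSD1 and H3T6ph (histone H3 with a phosphate on threonine 6) in LNCaP and LSD1 in another prostate cancer line, VCaP. All cells were kept for 3 days in hormone-depleted medium (10% charcoal-stripped serum, no phenol red) before a hormone stimulus that the labels do not name, and passages 14-17 are given for all of them. With 1 library per group no difference below has a replicate check, and no test of the conditions was possible. Because shares and totals chose the genes, their differences are given as a description.

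Most human genes give rise to more than 1 messenger RNA, through alternative promoters, alternative splicing and alternative polyadenylation. The resulting transcripts can encode different proteins or carry different untranslated regions, and the balance among them is set in part by SR proteins, hnRNPs and the cleavage and polyadenylation machinery. Transcripts of a gene share most of their sequence, so short reads seldom belong to 1 transcript alone. The FPKM of an accession is therefore an estimate that divides shared reads among overlapping transcripts, and it is less certain than the sum for the gene. The exon structure of the accessions and the proteins they encode were not analysed here.

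KDM1A itself (chromosome 1, 23345941 to 23410184, hg19) was at 6.87 FPKM with LSD1 siRNA and 37.0 FPKM with control siRNA, which is 18.6% of the control level. Its accession NM_015013 held 78.5% of the sum with LSD1 siRNA and 81.7% with control siRNA, so the targeted gene had a lower level and shares only 3.21 points apart. All 9 luminal prostate markers checked, KLK3 among them, were at 1 FPKM or more in both libraries. None of the 4 basal and none of the 4 immune markers reached 1 FPKM. Of 5 fibroblast and smooth muscle markers 2 did, COL1A1 and ACTA2, with a summed list level of 15.9 FPKM with LSD1 siRNA and 11.9 FPKM with control siRNA, and of 3 endothelial markers VWF alone did. In such bulk libraries a shift within cells and a shift in the mix of cells cannot be told apart. The file gives no read totals. Among low values the most frequent ratio between libraries was 1.29, which puts the depth of the LSD1 siRNA library at 77.5% of that of the control library.

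The 33 genes lay on 18 chromosomes and had 2 to 10 NM accessions each, 129 in all. Coordinates given with a gene below are those of its interval in the authors' deposited table (hg19). For 9 of the genes that interval also holds another gene and can reach beyond the named gene. Of these, 96 reached 1 FPKM in either library and 20 were listed at 0 FPKM in both. The largest difference in share ran from 30.9 to 65.4 points, with a median of 36.5 points, against a median of 3.66 points over all eligible genes. The leading accession, the one with the highest FPKM, was not the same in the 2 libraries for 21 of the 33 genes. Over all eligible genes it was a different one in 7.01%. In 9 genes there were only 2 accessions, so that one gained what the other lost. In 18 of the other 24 genes a single accession took up at least 80% of the share that others lost, and in 16 of the 24 a single accession gave up at least 80% of it. Both held in 12 of the 24, so the exchange was between a pair of transcripts in some genes and among several in others. In MYH14 and NOXA1, counted among the 24, all but 2 accessions were at 0 FPKM in both libraries, so the exchange was forced there too. These counts come from the shares that chose the genes and only describe them. The summed level was higher with LSD1 siRNA in 15 genes and lower in 18, against 1418 and 1577 of all eligible genes. Fold changes of the sums, taken as log2(FPKM + 1) with LSD1 siRNA minus that with control siRNA, ran between -0.44 and 0.36, with a median of -0.06, against a median of -0.01 over all eligible genes.

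**Figure D1:**
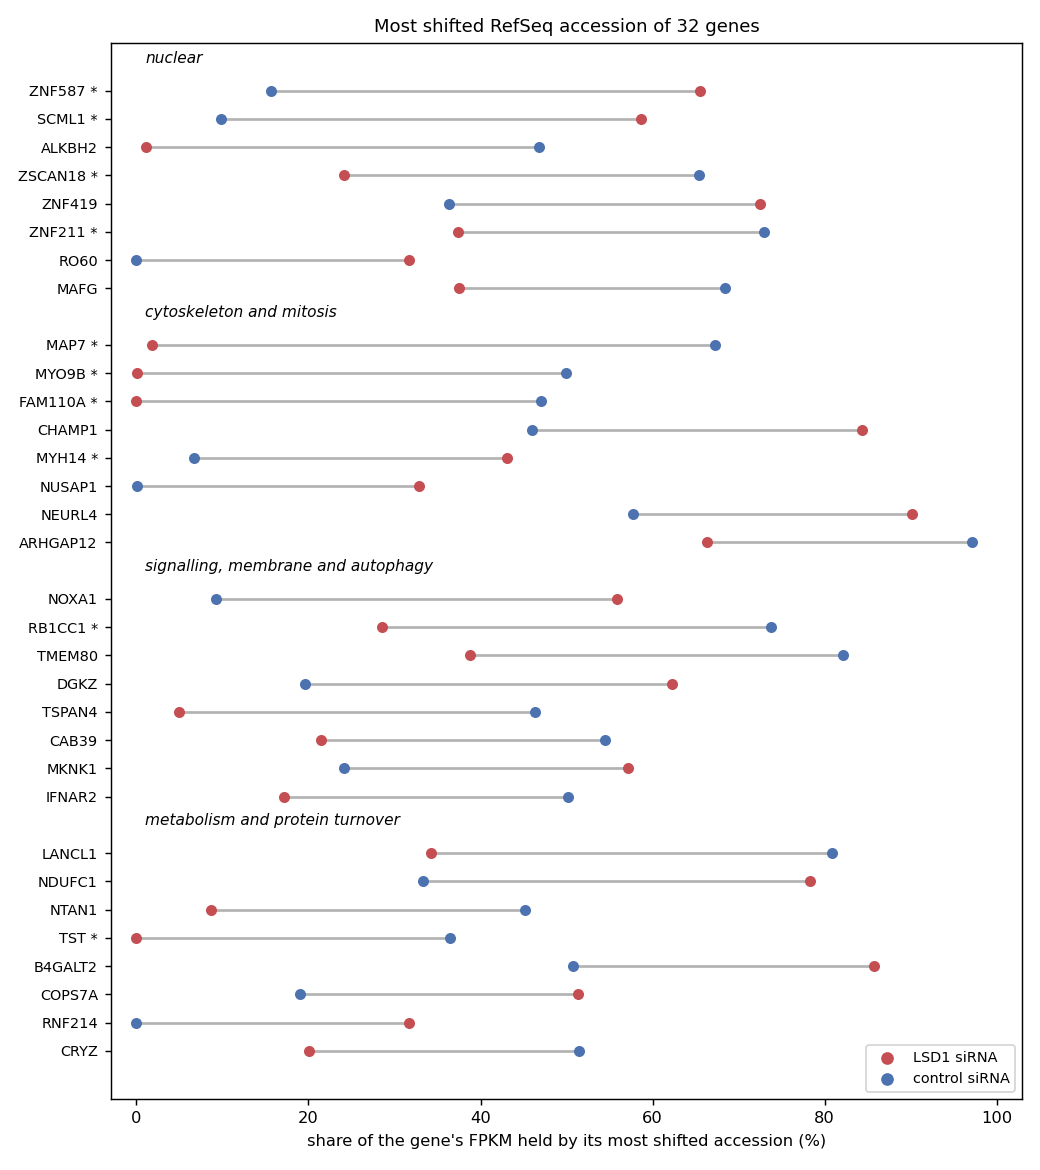
Share of the gene's FPKM (%, horizontal axis) held by the most shifted accession of 32 of the 33 genes with LSD1 siRNA (red) and control siRNA (blue), 1 library each, with genes grouped by role and an asterisk on those with a call in the authors' deposited table. The widest gap is that of MAP7, at 1.83% with LSD1 siRNA and 67.2% with control siRNA.

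Nuclear proteins made up 8 of the 33 genes, and 4 of these are zinc finger genes from the distal long arm of chromosome 19, a region rich in such genes. ZNF587 (58361181 to 58376491, hg19), a C2H2 zinc finger gene, summed to 15.2 FPKM with LSD1 siRNA and 17.2 FPKM with control siRNA. Its accession NM_001204817 was at 9.93 FPKM with LSD1 siRNA and 2.69 FPKM with control siRNA. The other accession, NM_032828, was at 5.23 FPKM with LSD1 siRNA and 14.5 FPKM with control siRNA, so the minor form of the control library led in the LSD1 siRNA library with 65.5% of the sum. ZSCAN18 (58595209 to 58629793), which encodes a SCAN domain zinc finger protein, showed the same kind of exchange. NM_001145543 was at 10.7 FPKM with LSD1 siRNA and 3.43 FPKM with control siRNA, and NM_001145542 was at 4.95 FPKM with LSD1 siRNA and 12.7 FPKM with control siRNA. Of its smaller forms, NM_001145544 was at 4.40 FPKM with LSD1 siRNA and 2.53 FPKM with control siRNA, and NM_023926 at 0.550 and 0.732 FPKM in that order. In ZNF211 (58144535 to 58154147) NM_198855 was at 5.23 FPKM with LSD1 siRNA and 0.711 FPKM with control siRNA, against 5.04 and 8.89 FPKM of NM_001265600 in the same order of libraries. Both transcripts of ZNF211 were thus about equal with LSD1 siRNA, while NM_001265600 led with control siRNA.

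ZNF419 (57999079 to 58006048) differed in another way. Its NM_001098496 led in both libraries, with 72.5% of the sum with LSD1 siRNA and 36.3% with control siRNA. With control siRNA the rest was spread over 6 further accessions, and 4 of these, NM_001098491, NM_001098492, NM_001098493 and NM_001098495, were at 0 or under 0.01 FPKM with LSD1 siRNA. With control siRNA these 4 were at 0.728, 0.541, 1.02 and 3.39 FPKM. NM_001098494 was at 2.57 FPKM with LSD1 siRNA and 4.46 FPKM with control siRNA, and NM_024691 at 2.41 and 1.38 FPKM in that order. The sum hardly differed, at 18.1 FPKM in each library. Chromosome 19 held 6 of the 33 genes (18.2%), with MYH14 and MYO9B, against 6.61% of the eligible genes. Its genes with a symbol starting with ZNF, ZSCAN or ZFP made up 4 of 33 (12.1%), against 21 of 2995 (0.701%). Zinc finger genes under other symbols were not in this count. These counts were read after the members were known and were not tested. Zinc finger genes of this region have close copies among which reads can be split. Whether this bore on their accession values was not tested. ZNF587B and ZNF814, both close relatives of ZNF587, were at 3.04 and 5.68 FPKM with LSD1 siRNA and at 4.24 and 7.05 FPKM with control siRNA.

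SCML1 (chromosome X, 17755592 to 17773105), related to the Polycomb protein Sex comb on midleg of Drosophila, summed to 10.9 FPKM with LSD1 siRNA and 11.7 FPKM with control siRNA. NM_001037536 was at 6.41 FPKM with LSD1 siRNA and 1.15 FPKM with control siRNA. NM_001037535 was listed at 0 FPKM with LSD1 siRNA and at 5.13 FPKM with control siRNA. SCML1 was the one member for which the authors' deposited table called both the accession that gained and the accession that lost share. ALKBH2 (chromosome 12, 109525993 to 109531293), which encodes a dioxygenase that repairs alkylated DNA, had NM_001001655 at 0.159 FPKM with LSD1 siRNA and 7.67 FPKM with control siRNA. Here the share was taken up by several forms. NM_001145375 was at 2.86 FPKM with LSD1 siRNA and listed at 0 FPKM with control siRNA, and NM_001205180 was at 3.46 FPKM with LSD1 siRNA and 1.02 FPKM with control siRNA. NM_001145374, at 6.12 and 6.37 FPKM in that order, and NM_001205179, at 1.17 and 1.31 FPKM, were close.

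RO60 (chromosome 1, 192981496 to 193060906) encodes a ring-shaped RNA-binding autoantigen. Its NM_001042369 was at 3.78 FPKM with LSD1 siRNA and 0.000777 FPKM with control siRNA, whereas NM_001042370 was at 0.00388 FPKM with LSD1 siRNA and 3.15 FPKM with control siRNA. The authors' deposited table gave these accessions p-values of 0.726 and 0.529. NM_001173524, which led in both libraries, was at 6.09 FPKM with LSD1 siRNA and 9.78 FPKM with control siRNA. MAFG (chromosome 17, 79876145 to 79885587) encodes a small Maf protein that pairs with NRF2 and other leucine zipper factors. Its NM_032711 held 62.5% with LSD1 siRNA and 31.5% with control siRNA, and NM_002359 was at 4.62 FPKM with LSD1 siRNA and 7.66 FPKM with control siRNA.

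Another 8 genes act in the cytoskeleton or in mitosis. MAP7 (chromosome 6, 136663419 to 136871957), which encodes a microtubule-binding protein that recruits kinesin-1, had the largest difference of all 33 and the most accessions, 10. NM_001198615 was at 16.6 FPKM with LSD1 siRNA and 3.18 FPKM with control siRNA. NM_001198619 was at 0.408 FPKM with LSD1 siRNA and 16.5 FPKM with control siRNA. Another accession, NM_001198616, was nearly level, at 4.41 FPKM with LSD1 siRNA and 4.60 FPKM with control siRNA. The 7 remaining accessions of MAP7 were at 0.535 FPKM or less in both libraries, and the sums were 22.3 FPKM with LSD1 siRNA and 24.6 FPKM with control siRNA.

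Both myosin heavy chain genes of the group lie on chromosome 19. MYO9B (17186591 to 17324104) encodes an unconventional myosin with a GTPase-activating domain. With LSD1 siRNA NM_004145 was at 13.2 FPKM and NM_001130065 at 0.00114 FPKM. With control siRNA the same accessions were at 5.03 and 5.02 FPKM, an even division. MYO9B also had the highest log2 fold change of its sum among the 33 genes, 0.36. MYH14 (50706885 to 50813801) encodes the heavy chain of non-muscle myosin IIC. NM_024729 was at 7.50 FPKM with LSD1 siRNA and 1.08 FPKM with control siRNA, and NM_001077186, which led in both libraries, was at 9.92 FPKM with LSD1 siRNA and 15.01 FPKM with control siRNA.

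FAM110A (chromosome 20, 814356 to 826922), whose product is found at centrosomes, summed to 20.5 FPKM in each library. NM_031424 was listed at 0 FPKM with LSD1 siRNA and at 9.64 FPKM with control siRNA, and NM_207121 was at 18.5 FPKM with LSD1 siRNA and 10.5 FPKM with control siRNA. The small form NM_001042353 was at 2.05 FPKM with LSD1 siRNA and 0.316 FPKM with control siRNA. NUSAP1 (chromosome 15, 41624892 to 41673248), a spindle-associated protein gene, had NM_016359 at 3.46 FPKM with LSD1 siRNA and 0.00333 FPKM with control siRNA. Its NM_018454 was at 3.03 FPKM with LSD1 siRNA and 7.37 FPKM with control siRNA. CHAMP1 (chromosome 13, 115079965 to 115092803), needed for the attachment of chromosomes to the spindle, had 84.3% of its sum in NM_001164145 with LSD1 siRNA and 46.0% with control siRNA. NEURL4 (chromosome 17, 7218951 to 7232638), a centrosomal protein gene, had 90.2% in NM_032442 with LSD1 siRNA and 57.7% with control siRNA. ARHGAP12 (chromosome 10, 32094326 to 32217804), which encodes a GTPase-activating protein, went the other way, with 66.3% in its leading NM_018287 with LSD1 siRNA and 97.2% with control siRNA. The share went mainly to NM_001270696, at 2.82 FPKM with LSD1 siRNA and 0.00016 FPKM with control siRNA. In 6 of these 8 genes the leading accession was the same in both libraries.

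**Figure D2:**
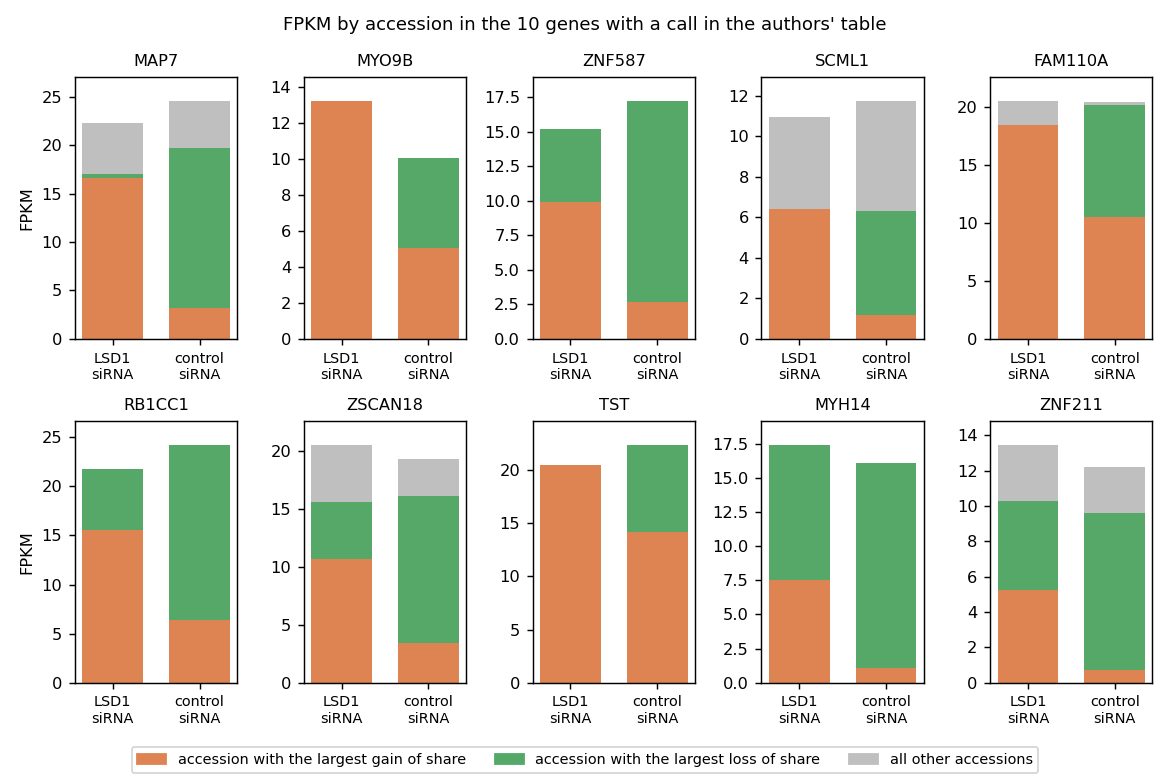
FPKM (vertical axis, own scale per gene) with LSD1 siRNA (left bar) and control siRNA (right bar), 1 library each, in the 10 genes that have a call in the authors' deposited table, split into the accession with the largest gain of share (orange), the one with the largest loss (green) and all others (grey). The bars of a gene are within 1.5-fold in height while the colours differ: the gaining accession of MAP7 is at 16.6 FPKM with LSD1 siRNA and 3.18 FPKM with control siRNA.

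Signalling, membrane and autophagy proteins gave 9 genes, and in all 9 the leading accession differed between the libraries. RB1CC1 (chromosome 8, 53535018 to 53627026) encodes FIP200, a scaffold of the ULK1 complex that starts autophagy. NM_001083617 was at 15.6 FPKM with LSD1 siRNA and 6.35 FPKM with control siRNA, and NM_014781 at 6.23 FPKM with LSD1 siRNA and 17.9 FPKM with control siRNA. CAB39 (chromosome 2, 231577557 to 231685790) encodes MO25 alpha, which activates the kinase LKB1. Its NM_016289 was at 21.8 FPKM with LSD1 siRNA and 11.7 FPKM with control siRNA, and NM_001130850 at 6.05 FPKM with LSD1 siRNA and 14.3 FPKM with control siRNA. NOXA1 (chromosome 9, 140317847 to 140335901), an activator gene of NADPH oxidase, had NM_001256067 at 7.12 FPKM with LSD1 siRNA and 1.02 FPKM with control siRNA. Its NM_006647, which held 90.7% of the control library's sum, held 44.1% with LSD1 siRNA.

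DGKZ (chromosome 11, 46354455 to 46402104), a diacylglycerol kinase gene, had 62.3% in NM_003646 with LSD1 siRNA and 19.6% with control siRNA. MKNK1 (chromosome 1, 47004368 to 47069966), whose kinase phosphorylates the translation factor eIF4E, had 57.2% in NM_001135553 with LSD1 siRNA and 24.1% with control siRNA. In TSPAN4 (chromosome 11, 842824 to 867116), a tetraspanin gene, NM_001025238 was at 0.653 FPKM with LSD1 siRNA and 6.63 FPKM with control siRNA. TSPAN4 had 6 accessions at 1 FPKM or more, and 5 of them held 13.1% or less each with LSD1 siRNA, when NM_003271 held 65.5%. IFNAR2 (chromosome 21, 34602231 to 34636820), a subunit gene of the type I interferon receptor, had the lowest log2 fold change of its sum among the 33 genes, -0.44. Its NM_207584 was at 1.90 FPKM with LSD1 siRNA and 7.71 FPKM with control siRNA, while NM_207585 was at 5.25 FPKM with LSD1 siRNA and 5.89 FPKM with control siRNA. TMEM80 (chromosome 11, 644225 to 704129), a transmembrane protein gene, had 61.3% in NM_174940 with LSD1 siRNA and 17.8% with control siRNA.

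The last 8 genes encode metabolic enzymes or act in protein turnover. NDUFC1 (chromosome 4, 140211071 to 140311935), an accessory subunit gene of respiratory complex I, had the highest level of the 33, at 70.8 FPKM with LSD1 siRNA and 77.1 FPKM with control siRNA. NM_001184990 was at 55.5 FPKM with LSD1 siRNA and 25.7 FPKM with control siRNA. NM_001184987 was at 8.47 FPKM with LSD1 siRNA and 38.1 FPKM with control siRNA. Of the minor forms NM_002494 was at 2.64 FPKM with LSD1 siRNA and 8.45 FPKM with control siRNA, and NM_001184991 was close, at 4.24 and 3.98 FPKM in that order. LANCL1 (chromosome 2, 211295973 to 211341499), a glutathione-binding LanC-like protein gene, was divided among 3 transcripts of like level with LSD1 siRNA, NM_001136574, NM_001136575 and NM_006055, at 8.82, 8.49 and 7.50 FPKM. With control siRNA NM_001136575 alone was at 23.7 FPKM, while NM_001136574 was at 0.00216 FPKM and NM_006055 at 5.61 FPKM. In COPS7A (chromosome 12, 6833150 to 6841041), a subunit gene of the COP9 signalosome, NM_016319 was at 18.98 FPKM with LSD1 siRNA and 7.31 FPKM with control siRNA. NM_001164095 of COPS7A was at 3.11 FPKM with LSD1 siRNA and 11.2 FPKM with control siRNA. NM_001164093, its leading form in the control library, was at 10.9 FPKM with LSD1 siRNA and 13.2 FPKM with control siRNA, and NM_001164094 was at 3.93 and 6.67 FPKM in that order.

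B4GALT2 (chromosome 1, 44444874 to 44456843), a Golgi galactosyltransferase gene, had NM_030587 at 0.00119 FPKM with LSD1 siRNA and 11.0 FPKM with control siRNA. NM_001005417 of B4GALT2 was at 25.3 FPKM with LSD1 siRNA and 16.5 FPKM with control siRNA, and NM_003780 was close, at 4.19 and 4.98 FPKM in that order. TST (chromosome 22, 37406900 to 37425863), the mitochondrial sulfurtransferase rhodanese, had its NM_001270483 listed at 0 FPKM with LSD1 siRNA and at 8.16 FPKM with control siRNA, so that NM_003312 made up all of the 20.5 FPKM with LSD1 siRNA, against 14.2 of 22.4 FPKM with control siRNA. RNF214 (chromosome 11, 117103404 to 117186972), a RING finger protein gene, was the reverse case: NM_001077239 was at 3.21 FPKM with LSD1 siRNA and listed at 0 FPKM with control siRNA. NTAN1 (chromosome 16, 15131710 to 15149936), whose enzyme deamidates N-terminal asparagine and so marks proteins for degradation, had NM_001270766 at 1.49 FPKM with LSD1 siRNA and 8.14 FPKM with control siRNA. Its NM_173474 led in both, at 11.1 FPKM with LSD1 siRNA and 8.86 FPKM with control siRNA, and NM_001270767 was at 4.67 and 1.03 FPKM in that order. CRYZ (chromosome 1, 75171172 to 75232360), a quinone reductase gene, had 20.04% in NM_001130042 with LSD1 siRNA and 51.4% with control siRNA. Its NM_001889 held most of the rest, at 9.48 FPKM with LSD1 siRNA and 6.14 FPKM with control siRNA. In this group 7 of 8 sums were lower with LSD1 siRNA, with log2 fold changes down to -0.23 in LANCL1. In the other groups 3 of 8 cytoskeletal and mitotic, 4 of 8 nuclear and 4 of 9 signalling, membrane and autophagy genes were lower. Of all 2995 eligible genes 1577 were lower, and the difference between groups was not tested.

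The authors' deposited table compares the same libraries that chose these genes, with 107 of their 129 accessions tested, so its calls describe the members and do not support them. It called an accession, with a q under 0.05, in 10 of the 33 genes, against 0.868% of the eligible genes. In all it called 142 accessions, 27 of them in 26 eligible genes. The 10 members are 38.5% of those 26 genes and 30.3% of the 33. Of the other called genes 5 had sums at least 1.5-fold apart, and the remaining 11 had smaller differences in share, with a median of 20.7 points. The lowest q of a member in the authors' deposited table was that of SCML1 NM_001037535, 4.38e-05, followed by MYO9B NM_004145 with 0.000142 and RB1CC1 NM_014781 with 0.00249. FAM110A NM_031424 had 0.00755, MAP7 NM_001198619 0.00902, MYH14 NM_024729 0.00963, SCML1 NM_001037536 0.0138, ZSCAN18 NM_001145543 0.0221, ZNF587 NM_032828 0.0302, TST NM_001270483 0.0305 and ZNF211 NM_198855 0.0483. Of these 11 accessions, 5 were higher and 6 lower with LSD1 siRNA. By role, a call fell on 4 of 8 nuclear genes, 4 of 8 cytoskeletal and mitotic genes, 1 of 9 signalling, membrane and autophagy genes and 1 of 8 metabolic and turnover genes. At an unadjusted p under 0.05 that table has 31 accessions in 23 of the 33 genes, against 11.5% of the eligible genes with at least 1.

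Several accessions were sizeable in 1 library and almost absent from the other. In 14 of the 33 genes at least 1 accession was at 1 FPKM or more in 1 library and under 0.01 FPKM in the other, 18 accessions in all, of which 11 were near 0 with LSD1 siRNA and 7 with control siRNA. The same counts over all eligible genes are not given here, so those of the members are a description only. The authors' deposited table called 3 of these 18, NM_031424 of FAM110A, NM_001037535 of SCML1 and NM_001270483 of TST, each listed at exactly 0 with LSD1 siRNA. For 13 of the 18 that table gives an unadjusted p of at least 0.05. B4GALT2 NM_030587, at 0.00119 FPKM with LSD1 siRNA and 11.0 FPKM with control siRNA, had a p of 0.687 there. For 6 of the 33 genes (18.2%) the most shifted accession itself was of this kind, against 3.51% of the eligible genes.

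Level and the number of annotated transcripts moved with the shift in share. The 33 genes had a median sum of 13.5 FPKM with LSD1 siRNA and 15.3 FPKM with control siRNA, against 26.2 and 26.6 FPKM over all eligible genes. Of 603 eligible genes with a mean sum of 10 to 15 FPKM, 18 were taken (2.99%, exact 95% binomial interval 1.78 to 4.68%). Between 15 and 20 FPKM 6 of 456 were taken, between 20 and 30 FPKM 6 of 628, between 30 and 50 FPKM 2 of 537, and between 50 and 100 FPKM 1 of 459, which was NDUFC1. None of the 312 genes at 100 FPKM or more was taken, an interval that reaches 1.18%. The median largest difference in share of all genes in these classes went down in the same order, with 5.59 points in the lowest and 1.24 points in the highest class. Of 1532 genes with 2 accessions 9 were taken (0.587%, 0.269 to 1.11%), and of 220 genes with 6 or more accessions 7 were taken (3.18%, 1.29 to 6.45%). Level, accession number and share all enter the rule, so these percentages describe the members and their intervals are no test. The part of depth and of read assignment in the result was not tested.

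**Figure D3:**
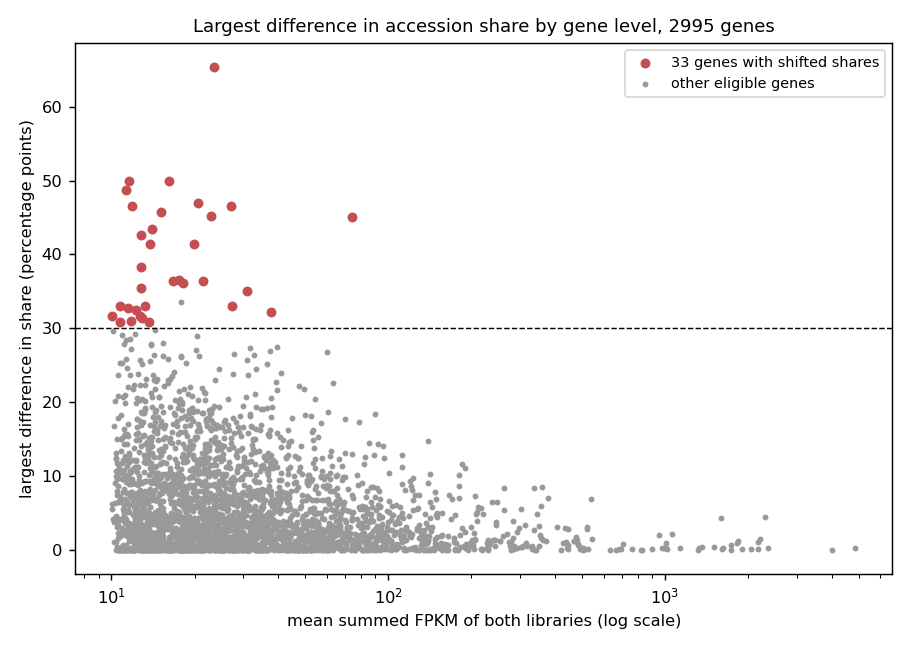
Largest difference in accession share between the LSD1 siRNA and control siRNA libraries (percentage points, vertical axis) against the mean summed FPKM (log horizontal axis) of 2995 eligible genes, with the 33 members in red and the limit of 30 points dashed. Large differences lie at low levels, and the grey point above the line is ZDHHC16, left out because its sums were over 1.5-fold apart.

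**Figure D4:**
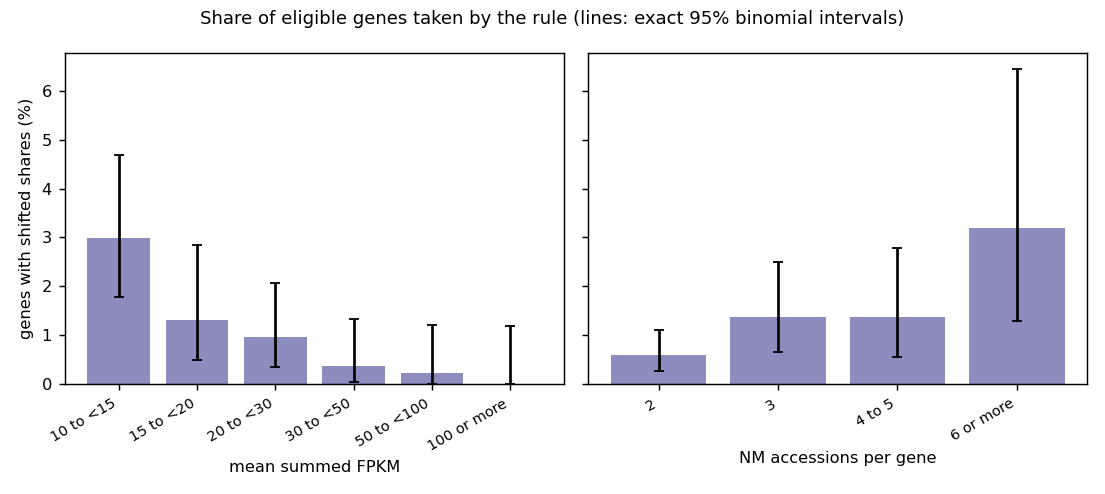
Percentage of eligible genes taken by the rule, by mean summed FPKM (left) and by number of NM accessions (right), with exact 95% binomial intervals as lines. The percentage is 2.99% at 10 to 15 FPKM and 0 at 100 FPKM or more, and 3.18% with 6 or more accessions. The rule itself uses level and accession number, so the intervals are no test.

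The limit of 30 points lay within a continuous range. Members just inside it included ARHGAP12 (30.9 points), MAFG (31.0), CRYZ (31.4) and RO60 (31.7). Just outside were NIF3L1 (29.8 points), IGSF9 (29.7), RNF135 (29.3), VARS2 (29.1) and HAUS4 (29.0). NIF3L1 had NM_001136039 at 7.72 FPKM with LSD1 siRNA and 4.17 FPKM with control siRNA, and NM_001142355 at 1.30 and 6.005 FPKM in that order. IGSF9, an immunoglobulin superfamily adhesion gene, had NM_020789 at 0.763 FPKM with LSD1 siRNA and 3.77 FPKM with control siRNA, and NM_001135050 at 9.43 and 6.38 FPKM in that order. RNF135, a RING finger ubiquitin ligase gene, had NM_197939 at 3.78 FPKM with LSD1 siRNA and listed at 0 FPKM with control siRNA, while its leading NM_032322 was at 8.40 and 9.56 FPKM in that order. VARS2, the mitochondrial valyl-tRNA synthetase gene, had NM_001167734 at 2.73 FPKM with LSD1 siRNA and 5.85 FPKM with control siRNA, and NM_020442 at 6.62 and 3.78 FPKM in that order. The table places VARS2 on an alternative haplotype sequence of chromosome 6. HAUS4, a subunit gene of the augmin complex of the spindle, had NM_001166269 at 17.4 FPKM with LSD1 siRNA and 12.5 FPKM with control siRNA, and NM_017815 at 2.04 and 7.20 FPKM in that order. In these genes too share differed among forms, not always between a single pair. Their sums lay between 10.2 and 19.8 FPKM with LSD1 siRNA and between 10.2 and 21.2 FPKM with control siRNA.

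For 9 of the 33 genes (27.3%) the table interval was shared with another gene, against 25.6% of the eligible genes. The RNA kit does not mark strand, so reads where such genes overlap cannot be told apart. TST shares its interval with MPST, which was at 25.03 FPKM with LSD1 siRNA and 22.2 FPKM with control siRNA. RNF214 shares one with BACE1 (12.8 and 11.4 FPKM in that order), RO60 with UCHL5 (12.5 and 16.9 FPKM), CRYZ with TYW3 (9.78 and 11.7 FPKM), TMEM80 with DEAF1 (24.5 and 21.6 FPKM) and NDUFC1 with NAA15 (8.37 and 10.5 FPKM). NOXA1, DGKZ and MKNK1 share theirs with ENTPD8, MIR4688 and KNCN. These last neighbours were at 1.34 FPKM or less in both libraries. Without the 9 genes 24 members remained, 9 of them with a call in the authors' deposited table. Over all eligible genes, those with shared intervals included, 0.868% had a call. These calls compare the libraries that chose the members and do not support them.

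The genes that act on transcript choice were then examined, in 7 lists of 98 genes in all, of which 95 were measured at 1 FPKM or more. None of the 95 was at least 1.5-fold higher or lower with LSD1 siRNA, where 1.04% of all 11751 protein-coding genes were higher and 1.18% lower by that measure. In all, 32 of the 95 had a log2 fold change above 0 and 63 below 0, with a median of -0.09 against -0.01 over all protein-coding genes. Of all 11751 protein-coding genes 5538 were above 0 and 6213 below 0. SR proteins, which bind exonic enhancers, had a median of -0.19 over 12 genes, with 10 below 0. SRSF6 was at 78.7 FPKM with LSD1 siRNA and 98.1 FPKM with control siRNA (log2 -0.31), and SRSF7 at 32.2 and 38.2 FPKM in that order (-0.24). The hnRNPs, which often oppose SR proteins, had a median of -0.12 over 20 genes, with 16 below 0, and HNRNPF was at 114 FPKM with LSD1 siRNA and 136 FPKM with control siRNA (-0.25). HNRNPR was at 38.2 FPKM with LSD1 siRNA and 45.5 FPKM with control siRNA (-0.25).

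The kinases that phosphorylate SR proteins had a median of -0.08 over 7 genes. SRPK1 had the lowest value of all lists, 12.6 FPKM with LSD1 siRNA and 16.9 FPKM with control siRNA (log2 -0.40), and SRPK2 was at 24.6 and 29.4 FPKM in that order (-0.25). Tissue splicing regulators had a median of 0.02 over 17 genes, 9 of them above 0, with the epithelial RNA-binding gene RBM47 at 25.8 FPKM with LSD1 siRNA and 34.3 FPKM with control siRNA (-0.40) and MBNL3 at 1.79 and 2.55 FPKM in that order (-0.35). The highest value of all lists, singled out after the values were seen, was that of KHDRBS3, a regulator of this list, at 4.92 FPKM with LSD1 siRNA and 3.75 FPKM with control siRNA (0.32). Core spliceosome genes had a median of -0.02 over 10 genes, with U2AF1, which reads the 3' splice site, at 85.6 FPKM with LSD1 siRNA and 68.9 FPKM with control siRNA (0.31) and EFTUD2 at 24.2 and 27.6 FPKM in that order (-0.18). Cleavage and polyadenylation genes had a median of -0.09 over 18 genes and lay between -0.21 and 0.09, with CPSF2 at 22.6 FPKM and CPSF6 at 17.5 FPKM with LSD1 siRNA, against 26.3 and 20.3 FPKM with control siRNA. Genes of nonsense-mediated decay, which removes transcripts with early stop codons, had a median of -0.07 over 11 genes and lay between -0.21 and 0.14, with UPF3B at 7.70 FPKM and UPF3A at 15.2 FPKM with LSD1 siRNA, against 9.07 and 17.3 FPKM with control siRNA.

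None of the 53 eligible genes of these lists had shifted shares by the rule, and none reached 20 points. Over all 2995 eligible genes 1.1% were taken by the rule, and 4.31% with its limit lowered to 20 points. At such low percentages 53 genes are too few for a count of 0 to be read as a difference. The largest difference was 14.6 points in UPF3A, a decay factor gene known for alternative splicing of its own transcript, where NM_080687 held 40.6% with LSD1 siRNA and 25.97% with control siRNA. In the splicing regulator TIA1, NM_022173 held 94.9% with LSD1 siRNA and 83.4% with control siRNA. The median largest difference over the 53 genes was 3.21 points, against 3.66 points over all eligible genes.

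The rule did not use the peak lists. They were compared with the genes by asking whether a peak lay within 20 kb of the table interval. LNCaP LSD1 peaks were near 12 of the 33 genes (36.4%, exact 95% binomial interval 20.4 to 54.9%), against 44.1% of the eligible genes. H3T6ph peaks were near 4 (12.1%, 3.40 to 28.2%), against 19.7%, and VCaP LSD1 peaks near 14 (42.4%, 25.5 to 60.8%), against 44.3%. Each of these intervals holds the value of the eligible genes, so no difference was detectable with 33 genes. At 10 genes (30.3%) none of the lists had a peak, against 32.1% of the eligible genes. These were COPS7A, LANCL1, TST, ZSCAN18, CHAMP1, ZNF211, NEURL4, NUSAP1, SCML1 and ARHGAP12.

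**Figure D5:**
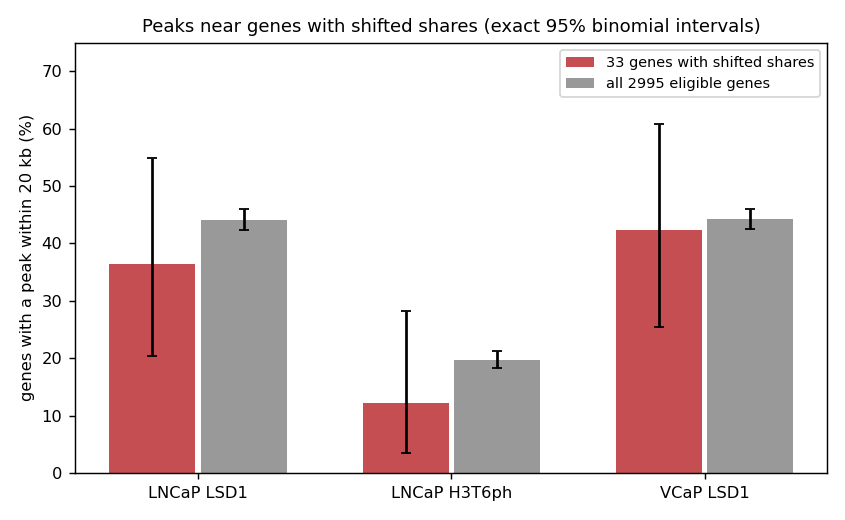
Percentage of genes with a ChIP-seq peak within 20 kb for the 33 members (red, left) and all 2995 eligible genes (grey, right), per peak list, with exact 95% binomial intervals as lines. The members stand at 36.4, 12.1 and 42.4%, and each of their intervals spans the grey value.

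In a few genes a peak lay over the end of the interval where transcription starts. At ZNF419 an LSD1 peak of LNCaP (chr19:57998629-57999232, hg19, score 86.79 in the authors' list) and one of VCaP (chr19:57998532-57999479, score 68.55) both covered it. At NTAN1 an LSD1 peak of LNCaP did (chr16:15149766-15150967, score 52.75), at MKNK1 another of LNCaP (chr1:47069745-47070444, score 64.62) and at ALKBH2 one of VCaP (chr12:109530107-109532028, score 66.37). FAM110A had a VCaP LSD1 peak there as well (chr20:813926-815466, score 62.76), and an LNCaP LSD1 peak inside the gene. RB1CC1 had a VCaP LSD1 peak over the high-coordinate end of its interval and an H3T6ph peak just beyond that end. MYO9B held LSD1 peaks of both lines inside its interval, 2 of LNCaP and 1 of VCaP, and MAP7 held 1 LNCaP LSD1 peak (chr6:136827345-136827925, score 52.16). How common a peak over the end where transcription starts is among all eligible genes is not given here.

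The promoters of the 4 genes with an LSD1 peak over that end and a RefSeq start at the end of the gene are shown to place the peaks beside the sequence. Each runs from 250 bases before to 50 after the RefSeq start (GRCh38.p14), on the strand of the gene, and accessions of the gene may start elsewhere. Peaks are in hg19, so window and peak were not placed on a common coordinate, and whether a window lies under its peak was not checked. Capitals mark the ETS core CCGGAA or its reverse complement TTCCGG.
ZNF419, chr19:57487500-57487799, plus strand: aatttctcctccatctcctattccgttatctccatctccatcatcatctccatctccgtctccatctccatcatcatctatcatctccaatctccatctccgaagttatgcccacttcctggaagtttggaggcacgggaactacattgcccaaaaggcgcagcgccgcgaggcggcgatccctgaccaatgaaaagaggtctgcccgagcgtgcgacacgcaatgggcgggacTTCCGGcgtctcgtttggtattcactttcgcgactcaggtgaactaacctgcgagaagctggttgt
NTAN1, chr16:15056025-15056324, minus strand: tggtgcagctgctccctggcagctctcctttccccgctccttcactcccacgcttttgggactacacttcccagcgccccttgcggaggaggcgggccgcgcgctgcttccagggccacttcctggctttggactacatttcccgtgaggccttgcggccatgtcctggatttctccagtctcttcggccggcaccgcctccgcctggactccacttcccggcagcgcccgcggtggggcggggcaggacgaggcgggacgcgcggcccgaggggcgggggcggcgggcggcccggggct
MKNK1, chr1:46604219-46604518, minus strand: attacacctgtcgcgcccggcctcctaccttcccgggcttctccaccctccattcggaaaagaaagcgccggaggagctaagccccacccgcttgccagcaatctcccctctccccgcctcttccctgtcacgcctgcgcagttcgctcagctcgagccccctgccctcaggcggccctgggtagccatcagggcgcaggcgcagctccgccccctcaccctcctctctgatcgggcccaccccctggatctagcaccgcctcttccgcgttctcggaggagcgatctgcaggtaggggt
ALKBH2, chr12:109093423-109093722, minus strand: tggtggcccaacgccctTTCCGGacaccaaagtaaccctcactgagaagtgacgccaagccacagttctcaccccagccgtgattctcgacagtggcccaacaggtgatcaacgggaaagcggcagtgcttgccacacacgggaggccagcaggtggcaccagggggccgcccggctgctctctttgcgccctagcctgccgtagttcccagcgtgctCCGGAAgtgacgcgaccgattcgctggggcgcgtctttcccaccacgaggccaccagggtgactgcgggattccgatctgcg

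The motifs reported here, searched on both strands, were the ETS core, the E-box CACGTG and the cyclic AMP response element. The response element was searched as TGACGTCA, which like the E-box reads the same on both strands. No match to these motifs overlapped another in these windows. ALKBH2 held the ETS core at 2 places and ZNF419 at 1, and neither of the other motifs reported was found in the 4 windows. The ETS core was in 17.6% of all 27305 promoters of this length in the RefSeq table, in 31.3% of those of eligible genes and in 9 of the 28 members with a promoter in the table (32.1%). The E-box was in 7.43% of all, in 11.2% of eligible genes and in 6 of the 28 members, and TGACGTCA in 1.98% of all, in 3.61% of eligible genes and in 0 of the 28. The windows held 21 CpG sites in ZNF419, 30 in NTAN1, 23 in MKNK1 and 24 in ALKBH2, against a median of 14 over all promoters, 27 over eligible genes and 30.5 over the members.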

How the data were processed

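Expression values are the FPKM that the authors deposited for each RefSeq accession in each library, and the columns are those Cuffdiff writes, per the file headers. The authors' p-value and q-value per accession come from the same deposited table, and an accession was called where q was under 0.05. Peak lists give a score per peak, as deposited by the authors, and its scale is not stated. TopHat2 2.0.4, Bowtie2 2.0.0, Cuffdiff 2.0.1, MACS2 and hg19 are named in the submitters' processing notes. The annotation version was not given. Of 40253 accessions, 38930 (96.7%) matched a symbol in the RefSeq gene table of GRCh38.p14, and genes with a failed accession were left out.

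Shares, sums and counts were computed with Python 3.11.15 and pandas 2.3.3, and exact binomial intervals, which cover counting error only, with scipy 1.17.1. A peak was near a gene with 1 base or more within 20 kb of its table interval. Gene lists were called past 1.5-fold on log2(FPKM + 1), over all accessions of a gene, at 1 FPKM or more in either library. Members were named by rule, with fuller values for those with the highest sums. Of the 33, 1 is counted but not reported by name here. The members, role groups and lists were chosen with earlier results of these data known.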

Additional observations from a re-analysis of the deposited data

How the results depend on the processing

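The number of genes taken by the rule depended on its limits. It was 129 with a difference of 20 points or more and 14 with 40 points or more, against 33 of 2995 eligible genes (1.1%) as described. With a minimum of 5 FPKM it was 82 of 3884 eligible genes (2.11%), and with a minimum of 20 FPKM it was 9 of 1849 (0.487%). It lay between 24 and 41 with a stricter or a wider limit on the sums, with noncoding accessions added, with 1 interval per gene, with expressed accessions only and, as alternatives chosen after seeing the data, without shared intervals, with the summed share differences and without accessions near 0. The stricter limit on sums left out IFNAR2 and MYO9B, and the wider one added ZDHHC16. Leaving out genes whose most shifted accession was near 0 in 1 library removed FAM110A, MYO9B, NUSAP1, RNF214, RO60 and TST. The count of members with a call was 23 at the authors' unadjusted p under 0.05 (11.5% of eligible genes), against 10 by q. LNCaP LSD1 peaks were near 57.6% of members within 50 kb (60.0% of eligible genes) and near 15.2% with the peaks above the median score alone (26.1%). VCaP LSD1 peaks above the median score were near 18.2% of members (27.9%). No paired analysis was possible because each group held 1 library. The median log2 fold change of the sums was -0.12 with a minimum of 20 FPKM, against -0.06, and 0 list genes were past 1.5-fold under each alternative run. The deposited FPKM hold no read counts, so no error could be set on an accession's value.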

Other observations

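ZDHHC16, which encodes a palmitoyltransferase, was the one eligible gene with a shift of at least 30 points whose sum was over 1.5-fold apart. It summed to 22.8 FPKM with LSD1 siRNA and 12.8 FPKM with control siRNA. NM_032327 of ZDHHC16 was at 16.2 FPKM with LSD1 siRNA and 4.76 FPKM with control siRNA, with a q of 0.00142 in the authors' deposited table. NM_198044 of ZDHHC16 held 5.16% with LSD1 siRNA and 29.4% with control siRNA, so level and shares both differed.

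Eligible genes outside the 33 with a called accession, sums within 1.5-fold and smaller differences in share included SLC10A3 (27.9 points), the zinc finger gene ZNF317 on chromosome 19 (27.2), PELI3 (25.2), CFLAR (23.1), which encodes the caspase-8 regulator c-FLIP, RIPOR1 (21.5), ALG13 (20.7), NF2 (16.1), which encodes merlin, and PTK2 (13.0), which encodes focal adhesion kinase. These genes were picked from the list of 11 after their values were seen.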
